A study of Mus musculus with 17 samples.

Results

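Runx1, Runx3 and Cbfb encode the DNA-binding and the non-DNA-binding subunits of the core binding factor, and their transcript levels were followed through blood cell development. The members were chosen by gene symbol, and 3 of 3 were found among the 22180 genes tested, each measured by 1 probe set (17332236 for Runx1, 17419840 for Runx3 and 17504649 for Cbfb). RNA from 9 sorted mouse populations was hybridised to 17 Affymetrix Mouse Gene 2.0 ST arrays. The 7 marrow populations ran from stem cells (HSC) and lymphoid-primed multipotent progenitors (LMPP) to myeloid progenitors split by Flt3 (flt3+ CMP and flt3- CMP), the common lymphoid progenitor (CLP), the early innate lymphoid progenitor (EILP) and natural killer (NK) cells. The thymus gave the early thymic progenitor (ETP) and the DN3 thymocyte, which is further along the T lineage. EILP has 1 array and every other population has 2. All populations were pooled from chimeric mice: B6 CD45.1 recipients given 900 rads received marrow of TCF-1 GFP reporter donors and were used after 12 weeks. The labels give neither the age of the mice nor separate animals for the replicates, so the tests weigh differences against a spread between samples that may be technical only. Levels are the deposited log2 values, whose median over all genes and arrays was 4.54. Population means were subtracted on the log2 scale, with standard errors (SE) from limma, and a difference counted as called where its p, adjusted by Benjamini-Hochberg across every gene tested, was under 0.05.

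Runx proteins bind DNA through a conserved Runt domain. Cbfb does not touch DNA itself but raises the affinity and the stability of the Runx subunit, so that both are needed for function. Runx1 is required in the mouse embryo for the emergence of blood stem cells and later for early T and B cell development, and Runx3 acts in CD8 T cells, NK cells and innate lymphoid cells.

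Runx genes are known to use a distal and a proximal promoter, and RefSeq (GRCm38.p6) gives both starts for Runx1 and for Runx3, and 1 for Cbfb. The deposited value is 1 number per gene, so the starts cannot be told apart in the levels below. The windows from 250 bases before to 50 after each start were searched for the Runx motif TGTGGT on both strands. The motif occurred 2 times in the distal window of Runx1, 2 times in that of Runx3, and 0 times in the proximal windows and in that of Cbfb. For comparison, 16.8% of 32851 windows of this length held it at least 1 time and 1.81% at least 2 times. In both distal windows the copies lay in the longest run that these windows share, the 18 bases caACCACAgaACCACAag. This run was found in 4 windows of the 32851: those of Runx1, Runx2 and Runx3, and that of Gm16225, where it is the Runx3 copy read on the other strand. Counted from the start, the run began at position 27 of Runx1, 22 of Runx2 and -136 of Runx3. The 30-base stretches that hold it are shown because they carry every copy of the motif found at the starts of the members. Capitals mark TGTGGT on either strand, written ACCACA here, and its variant TGCGGT, which 6.45% of windows held. A match is a description of the letters and not evidence of binding.
Runx1, chr16:92826025-92826054, minus strand: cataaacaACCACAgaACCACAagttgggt
Runx2, chr17:44814583-44814612, minus strand: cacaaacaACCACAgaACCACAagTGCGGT
Runx3, chr4:135120503-135120532, plus strand: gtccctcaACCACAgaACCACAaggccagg

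Markers set NK and DN3 apart most clearly. Ncr1 and Eomes, defining genes of NK cells, were highest in NK (11.15 and 8.96), and Cd3e and Ptcra, parts of the T cell and pre-T cell receptors, were highest in DN3 (10.11 and 7.30). The mean of 4 EILP markers was 7.16 in EILP and 7.19 to 7.46 in NK, and that of 5 ETP markers was 6.99 to 7.10 in ETP and 6.97 to 7.37 in DN3, so neither list mean separated its population from the other named one. The mean of the NK markers was 4.63 in EILP and 9.60 to 9.80 in NK. That of the DN3 markers was 4.95 to 5.08 in ETP and 9.20 to 9.39 in DN3. Tcf7, which encodes TCF-1, and the paralogue Runx2 were not analysed here. Transcripts of neutrophils were present in every marrow array: the mean of the markers S100a8, S100a9, Ltf, Camp and Ngp was 10.31 to 11.96 in the 13 marrow arrays and 4.13 to 5.56 in the 4 thymus arrays. Y-linked transcripts had a mean of 7.03 to 7.66 on 5 arrays (DN3, CLP and EILP) and of 3.03 to 3.38 on the other 12. Xist, a further sex-linked transcript, was at 7.32 in DN3, 9.20 in CLP and 9.24 in EILP, and at 11.30 or more in the other populations. The arrays of the high side thus differed in Xist. In bulk samples, fewer cells of a type and less RNA per cell cannot be told apart.

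Each member varied over the 9 populations by the moderated F test of limma, a call shared by 22.7% of all genes. Runx1 spanned 1.67 between its highest and lowest population mean (adjusted p = 0.0048), Runx3 spanned 1.22 (adjusted p = 0.035) and Cbfb spanned 0.96 (adjusted p = 0.022). The populations behind these spans were not the same: Runx1 was highest in the thymus, Runx3 was lowest in CLP, and Cbfb was lowest in EILP. Of the 8 steps between neighbours in the order of levels, limma called 0 for each member, and at an unadjusted p under 0.05 there was 1, between ETP and EILP for Cbfb.

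**Figure D1:**
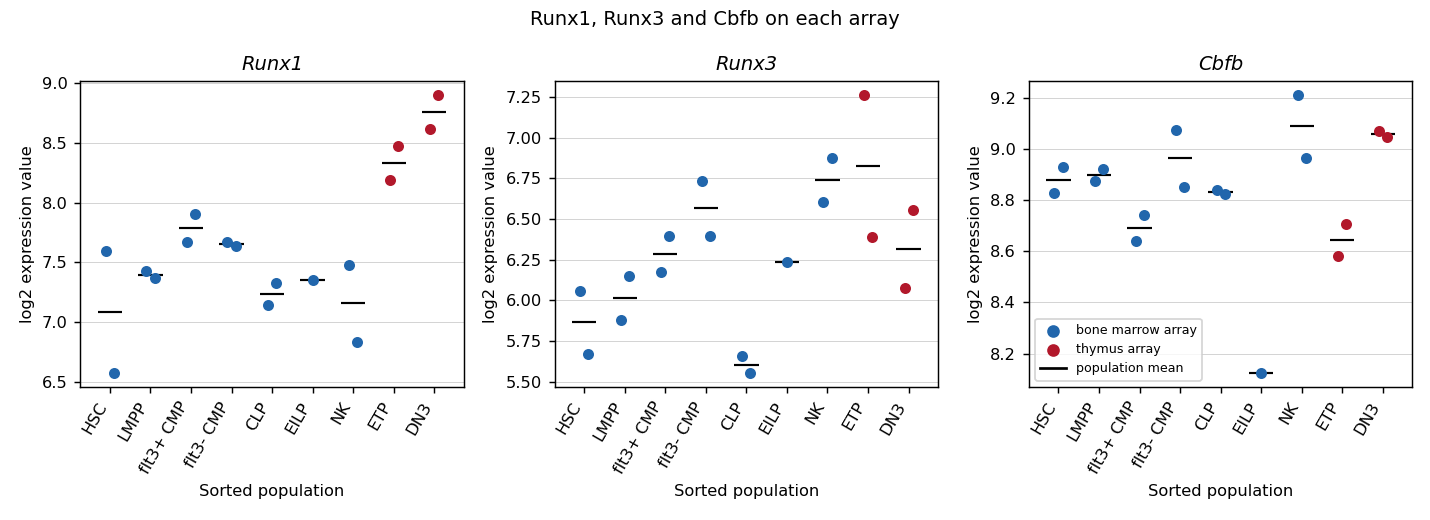
Log2 expression value (vertical axis, a separate range for each gene) of Runx1, Runx3 and Cbfb on each of the 17 arrays, by sorted population. Points are arrays, blue for marrow and red for thymus, and bars are population means. The 4 thymus arrays lie above all marrow arrays for Runx1, and the EILP array lies below all others for Cbfb.

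Runx1 had its highest levels in the thymus, on all 4 arrays. Its level was 8.62 and 8.90 on the DN3 arrays and 8.19 and 8.48 on the ETP arrays. Among marrow populations, flt3+ CMP had 7.67 and 7.90, flt3- CMP had 7.67 and 7.64, and LMPP had 7.43 and 7.37. Thymus arrays spanned 8.19 to 8.90 and marrow arrays 6.58 to 7.90, so the tissues did not overlap. The share of all genes whose arrays separate the tissues in this way was not counted. EILP stood at 7.35 and CLP at 7.14 and 7.33. The replicates were furthest apart in NK, at 7.48 and 6.83, and in HSC, at 7.59 and 6.58. These are the populations with the lowest means, so the bottom of the order rests on 1 array of each.

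Of the 36 population pairs 9 were called for Runx1, and each of the 9 included ETP or DN3. At least as many pairs were called for 9.56% of all genes. DN3 exceeded CLP by 1.53 ± 0.28 (SE, n = 2 against 2, limma adjusted p = 0.0023), a comparison in which 4.69% of genes were called higher. DN3 also exceeded HSC by 1.67 ± 0.28 (adjusted p = 0.0014), NK by 1.60 ± 0.28 (adjusted p = 0.0015) and LMPP by 1.36 ± 0.28 (adjusted p = 0.0076). In those pairs 4.02%, 6.04% and 3.77% of genes were called higher in DN3. Its other calls were against EILP (1.41, adjusted p = 0.017, 5.13% of genes higher in DN3) and flt3- CMP (1.11, adjusted p = 0.029, 2.63% of genes). ETP exceeded NK by 1.17 ± 0.28 (adjusted p = 0.014, 4.6% of genes called higher), HSC by 1.25 (adjusted p = 0.018, 1.88% of genes) and CLP by 1.10 (adjusted p = 0.019, 5.42% of genes). The step from ETP to DN3 was 0.43 ± 0.28 (adjusted p = 0.44), and that from LMPP to ETP, where 3.42% of genes were called, was 0.93 ± 0.28 (adjusted p = 0.11, or 0.029 and called without either HSC array). The calls of DN3 against CLP, HSC and NK held with each array left out, with adjusted p up to 0.032. The other 6 calls were each lost without 1 or more single arrays, up to an adjusted p of 0.2: DN3 replicate 2 (against LMPP, flt3- CMP and EILP), DN3 replicate 1, LMPP replicate 2 and each array of flt3- CMP. For ETP they were ETP replicate 2 (all 3 calls), NK replicate 2, HSC replicate 2 and each array of CLP. With only the compared populations in the fit, the ETP calls against NK and HSC were lost (adjusted p = 0.069 and 0.17).

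Within marrow, no difference in Runx1 was detectable. With the 13 marrow arrays alone, a fit chosen after seeing the data, its span was 0.70 (F test adjusted p = 0.45) and 0 of 21 pairs were called by limma, with 1 at an unadjusted p under 0.05. Neutrophil and red cell transcripts moved with the same split: S100a8, a calcium-binding protein of neutrophils, was at 11.95 or more on every marrow array and at 6.67 or less on every thymus array. The mean of the red cell genes Rhag and Slc4a1, the 2 of 5 red cell markers measured, was 5.51 to 8.06 in marrow and 4.45 to 4.73 in thymus. All 5 neutrophil markers exceeded the median of all values in each marrow population, and 3 of 5 did in ETP and in DN3. Their part in the Runx1 difference was not tested. On the Y-linked split, DN3, CLP and EILP lie on the high side and the other populations on the low side. The Runx1 calls of DN3 against HSC, NK, LMPP and flt3- CMP and of ETP against CLP cross it. For these calls the effect of the population cannot be told apart from that of the split. DN3 and CLP share a side, and so do ETP and NK, but Xist was at 7.32 in DN3 and 9.20 in CLP. A fit within that side compares the same arrays, so the differences of 1.53 and 1.17 could not change. Only the estimate of the variance did, and the limma adjusted p was 0.0025 for DN3 minus CLP and 0.028 for ETP minus NK.

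Runx3 was lowest in CLP and highest in ETP and NK. Its level was 5.66 and 5.55 on the CLP arrays, and HSC (6.06 and 5.67) and LMPP (5.88 and 6.15) lay next above. EILP stood at 6.23, flt3+ CMP at 6.17 and 6.39, flt3- CMP at 6.73 and 6.40, and DN3 at 6.08 and 6.56. NK had 6.61 and 6.87. ETP had 7.26 and 6.39, so its first place rests on replicate 1 alone. Neighbouring populations overlapped in most steps of this order, and both CLP arrays lay below all others, the nearest being an HSC array at 5.67. Of all genes 17.2% had their lowest mean in CLP, the largest share of any population. The medians of the CLP arrays, 4.46 and 4.45, were the lowest of the 17 arrays.

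Of the 36 pairs 3 were called for Runx3, all against CLP, a number that 25.1% of genes reached. NK exceeded CLP by 1.13 ± 0.26 (SE, n = 2 against 2, limma adjusted p = 0.02), where 3.22% of genes were called higher. ETP exceeded CLP by 1.22 ± 0.26 (adjusted p = 0.0067), and flt3- CMP exceeded it by 0.96 ± 0.26 (adjusted p = 0.048, with 2.91% of genes called higher). Array medians were 0.15 higher in NK than in CLP, and with each array centred on its median the NK difference was 0.99 (adjusted p = 0.045) and the flt3- CMP call was lost (adjusted p = 0.09). All 3 depend on single arrays. The NK call was lost without CLP replicate 1, CLP replicate 2 or NK replicate 2 (adjusted p up to 0.12), and the ETP call without CLP replicate 2 or ETP replicate 1 (up to 0.061) and with CLP and ETP alone in the fit (0.064). The flt3- CMP call was lost with 12 of the 17 arrays left out, namely each array of NK, CLP, LMPP and HSC and of both kinds of CMP (up to 0.3). NK, ETP and flt3- CMP lie on the low side of the Y-linked split and CLP on the high side, so for all 3 calls the effect of the population cannot be told apart from that of the split. DN3, on the same side as CLP, differed from it by 0.71 ± 0.26 (adjusted p = 0.12). With 1 array left out this difference ranged from 0.47 to 0.95, and it was called without either ETP array (adjusted p = 0.045). NK minus LMPP, with both on the low side and 6.72% of genes called, was 0.72 ± 0.26 (adjusted p = 0.13). The F test of Runx3 lost its call without CLP replicate 1 or 2, flt3- CMP replicate 1 or 2, flt3+ CMP replicate 1 or 2, HSC replicate 2, LMPP replicate 1 or NK replicate 2 (adjusted p = 0.05 to 0.1). Without ETP replicate 2 its adjusted p was 0.0053 and 8 pairs were called.

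Cbfb was nearly level over 8 populations and lower on the EILP array. The EILP array gave 8.12. The other 16 arrays spanned 8.58 to 9.21, with ETP at 8.58 and 8.71, flt3+ CMP at 8.64 and 8.74, and CLP at 8.84 and 8.82. HSC had 8.83 and 8.93, LMPP 8.88 and 8.92, and flt3- CMP 9.07 and 8.85. DN3 had 9.07 and 9.05, and NK 9.21 and 8.96. No array of another population reached down to the EILP value, and the gap between replicates was at most 0.25.

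All 5 Cbfb calls set the EILP array against another population, so they share that 1 array and are not independent. All but the call against DN3 also cross the Y-linked split. DN3 and EILP lie on the same side, but Xist was at 7.32 in DN3 and 9.24 in EILP. At least as many pairs were called for 18.5% of genes. EILP minus NK was -0.96 ± 0.18 (SE, n = 1 against 2, limma adjusted p = 0.0073), where 3.48% of genes were called and 1.91% were called lower in EILP. EILP minus DN3 was -0.93 ± 0.18 (adjusted p = 0.0033, 5.13% of genes called lower), and both calls held with each other array left out. EILP was also lower than flt3- CMP by 0.84 (adjusted p = 0.011, 4.27% of genes called lower), than LMPP by 0.77 (adjusted p = 0.026, 1.79%) and than HSC by 0.75 (adjusted p = 0.024, 2.64%). Those 3 were each lost without a single array: flt3- CMP replicate 1 (adjusted p = 0.082), either LMPP array (up to 0.11) or either HSC array (up to 0.1). With only the compared populations in the fit, 4 of the 5 calls were lost: the adjusted p was 0.3 against NK, 0.12 against LMPP, 0.12 against HSC and 0.055 against flt3- CMP. EILP minus CLP was -0.71 ± 0.18 (adjusted p = 0.17, with 0.365% of genes called in either direction), and EILP minus ETP was -0.52 ± 0.18 (adjusted p = 0.099).

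EILP is a single array, and its variance in these tests is borrowed from the replicates of the other populations. Of all genes 16.2% had their lowest mean in EILP. Without the EILP array the span of Cbfb was 0.44 (F test adjusted p = 0.2) and 0 of the remaining 28 pairs were called by limma, with 5 at an unadjusted p under 0.05. The array median was 4.55 in EILP, inside the range of 4.45 to 4.62 over the 17 arrays. EILP and CLP were close in neutrophil and red cell transcripts: the neutrophil mean was 11.96 in EILP and 11.78 to 11.90 in CLP, and the red cell mean was 7.87 and 7.91 to 8.06. The mean of 4 macrophage markers was 5.85 in EILP and 5.54 to 5.58 in CLP. That of 4 mature B and plasma cell markers was 4.35 and 4.66 to 4.90. DN3, which lies on the same side of the Y-linked split as EILP, stood at 9.05 and 9.07 for Cbfb. The part of other cells, of the array median and of the Y-linked split in the Cbfb level of EILP was not tested.

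**Figure D2:**
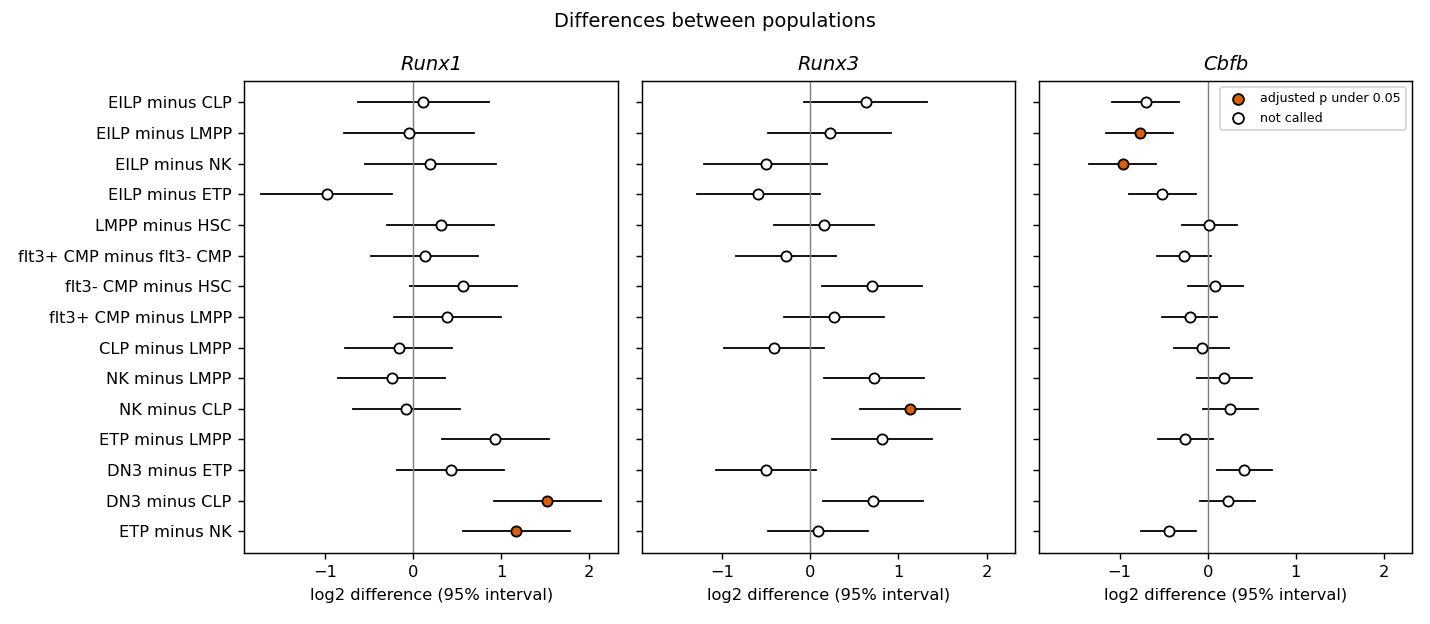
Log2 differences (horizontal axis) with their 95% intervals for Runx1, Runx3 and Cbfb in 15 comparisons between populations, listed on the vertical axis. Filled points are called at an adjusted p under 0.05 over all genes and open points are not. The called differences are DN3 minus CLP and ETP minus NK for Runx1, NK minus CLP for Runx3, and EILP minus LMPP and EILP minus NK for Cbfb.

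In EILP, the innate lymphoid precursor, only Cbfb passed the test in the comparisons with LMPP, CLP, NK and ETP, and it did so against LMPP and NK. Against CLP and ETP none of the members was called (0.365% and 8.19% of genes called). Runx1 in EILP differed from CLP by 0.12 (95% interval -0.63 to 0.86), from LMPP by -0.05 (-0.79 to 0.70) and from NK by 0.19 (-0.55 to 0.94). Runx3 in EILP lay between CLP and NK, 0.63 above the first (-0.07 to 1.32) and -0.51 relative to the second (-1.20 to 0.19). For Runx3 these intervals leave room for differences of the size called elsewhere, from 0.96 (flt3- CMP against CLP). Those of Runx1 stop short of its smallest called difference, 1.10 between ETP and CLP, but leave room for smaller ones. The members are therefore not shown to be alike in these populations. The 4 comparisons share the EILP array. Runx1 in EILP minus ETP was -0.98 ± 0.34 (adjusted p = 0.11), and its adjusted p was 0.034 without either HSC array.

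At the steps among early progenitors no member was called, and few genes were. The share of genes called was 0.6% for LMPP minus HSC, 0.442% for flt3+ CMP minus LMPP and 0.108% for flt3+ CMP minus flt3- CMP. Runx1 differed by 0.31 (95% interval -0.29 to 0.92), 0.39 (-0.22 to 1.00) and 0.13 (-0.47 to 0.74) in these. Runx3 differed by 0.15 (-0.42 to 0.72), 0.27 (-0.30 to 0.84) and -0.28 (-0.85 to 0.29). For Cbfb, whose residual SD of 0.10 was lower than that of all but 4.1% of genes, the intervals were narrower: -0.29 to 0.33, -0.52 to 0.10 and -0.58 to 0.04. The residual SD was 0.33 for Runx1 and 0.30 for Runx3. From HSC to flt3- CMP, where 4.22% of genes were called, the Runx3 arrays did not overlap but the difference missed the threshold (0.70 ± 0.26, adjusted p = 0.18).

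**Figure D3:**
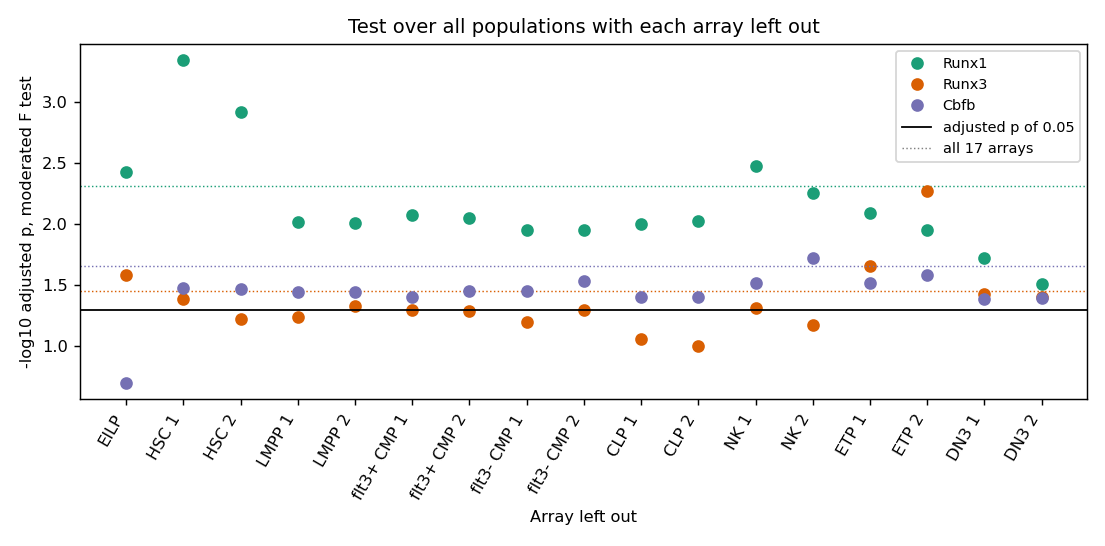
The -log10 of the adjusted p of the moderated F test over all populations (vertical axis) with each array left out in turn (horizontal axis), for Runx1, Runx3 and Cbfb. The solid line is an adjusted p of 0.05 and dotted lines are the values with all 17 arrays. Runx1 stays above the line, Cbfb falls below it without EILP, and Runx3 falls below it for 9 of the 17 arrays.

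The members did not follow one another closely. Over the 9 population means, Pearson's r was 0.43 between Runx1 and Runx3, 0.11 between Runx1 and Cbfb and 0.06 between Runx3 and Cbfb. These are descriptions, since the values come from the same libraries. Among 4863 named genes whose means spanned at least 1, those most like Runx1 were Zfp362 (r = 0.96), Slc38a1, Fam210a, Ldlrad4 (0.95 each) and Il17rb (0.94), and the least alike were Lyz2, S100a6 and Cited2 (-0.96 each). Lyz2 encodes lysozyme of myeloid cells, and its level was 10.56 to 11.51 in marrow populations, 8.87 in ETP and 7.46 in DN3. Il17rb, a receptor subunit for IL-25, was at 8.79 in DN3, 7.53 in ETP and 6.18 in EILP. In ETP and in DN3 the 5 genes most like Runx1 were higher, and the 3 least alike lower, than in any marrow population. The r for Runx1 thus lean on the split between marrow and thymus. Those most like Runx3 were Nkg7, a granule membrane protein of cytotoxic cells (r = 0.85), Zfp607a (0.83), Tlr12 and Cd48 (0.82 each) and Fthl17b (0.80), and the least alike were Zgrf1 (-0.92), Smim6 (-0.89) and Ccp110 (-0.88). Those most like Cbfb were Fam172a (r = 0.93), Ankib1, H2ac1 and Xpa (0.91 each) and Mrpl57 (0.90), and the least alike were Tnnc1 (-0.95), Omg (-0.94) and Tpmt (-0.93). Each of these 5 was lowest in EILP and each of the 3 least alike was highest there, so these r lean on that 1 array. Over the 17 arrays, r for the 5 ranged from 0.57 (H2ac1) to 0.81 (Fam172a).

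Of the corepressors and enzymes that act with Runx proteins, 24 of 27 listed were measured. In DN3 minus CLP, where 10.6% of genes were called, 5 rose and 2 fell, and the median was 0.21 against 0.09 over all genes. Cdk6, a cell cycle kinase that binds Runx1, was higher in DN3 (10.42) than in CLP (9.20), by 1.21 ± 0.19 (adjusted p = 0.00068), and Hipk2, a kinase that phosphorylates Runx1, was lower (6.27 against 7.37, adjusted p = 0.00029). DN3 and CLP differ in tissue, and so do ETP and NK, whose neutrophil marker means were 5.04 to 5.56 and 11.26 to 11.45. The part of this split in these and the following list counts was not tested. In ETP minus NK, where 11.2% of genes were called, 3 rose and 3 fell. Cdk6 was higher in ETP by 1.80 (adjusted p = 2.4e-05), and Tle4, a Groucho corepressor recruited by Runx proteins, was lower, the difference being -1.01 (adjusted p = 0.0069). Tle4 was higher in NK than in CLP, by 1.07 (adjusted p = 0.0084), where 1 of the list rose and 2 fell and 6.39% of all genes were called. Smarca4, the ATPase of the SWI/SNF chromatin remodeller, was at 9.87 in DN3 and 8.34 in ETP (difference 1.53, adjusted p = 0.00013), a step with 2 rises and 1 fall in the list and 8.73% of all genes called. This step and NK minus CLP cross the Y-linked split, whose part was not tested. Smarca4 was the 1 member of the list called in EILP minus CLP, at 7.79 against 9.07 (-1.29 ± 0.23, adjusted p = 0.03).

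Among the stem cell and ETS factors that share target elements with Runx1, 1 of 11 rose and 4 fell from ETP to DN3 (8.73% of all genes were called, list median -0.21 against -0.03 for all genes). This step, like NK minus CLP below, crosses the Y-linked split, whose part was not tested. Spi1, which encodes the myeloid and B cell factor PU.1, was at 7.13 in ETP and 4.39 in DN3 (-2.74 ± 0.18, adjusted p = 4.7e-07). Lyl1, a basic helix-loop-helix factor, was at 7.35 and 4.51 (-2.85 ± 0.23, adjusted p = 3e-06), and Erg fell by 1.74. Ets1, an ETS factor that binds DNA together with Runx1, ran the other way, from 5.81 to 8.19 (2.38 ± 0.19, adjusted p = 3e-06). In NK, 4 of the 11 were lower than in CLP and 1 was higher (6.39% of genes called). Erg was lowest there, at 5.84 against 9.05 in ETP, and in ETP minus NK 4 of 11 were higher and 1 was lower (11.2% of genes called). Erg was higher in ETP by 3.21 (adjusted p = 1.3e-07), and the lower one was Ets1 (-2.14, adjusted p = 5.8e-06). In EILP minus CLP 0 of the 11 were called by limma, and 4 had an unadjusted p under 0.05.

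Among lymphoid genes known to depend on Runx1 or Cbfb, 10 of 13 were measured, and in CLP minus LMPP 5 rose and 1 fell (5.96% of genes called, list median 0.98 against -0.05). Il7r, the IL-7 receptor alpha chain, was at 9.71 in CLP and 6.71 in LMPP, and Ebf1, a B lineage factor, at 7.30 and 3.87 (adjusted p = 2.4e-05 and 2.5e-05). Runx1 itself differed by -0.16 in this comparison (adjusted p = 0.87). Il7r and Ebf1 are also among the CLP markers, so their height in CLP restates what the cells are. CLP lies on the high side of the Y-linked split and LMPP on the low side, and the part of the split was not tested. In EILP minus CLP, both on the high side and with 0.365% of genes called, 4 of the 10 fell and 0 rose: Il7r by a difference of -3.66 ± 0.34 (adjusted p = 0.00016), Ebf1 by -3.61, Rag2, a subunit of the recombinase, by -3.07, and Pax5, a B lineage factor, by -2.17 (adjusted p = 0.037). At the step from ETP to DN3, which crosses the Y-linked split, 2 of 10 rose and 0 fell, against 8.73% of all genes called. Bcl11b, a T lineage factor, was at 4.72 in ETP and 8.84 in DN3 (4.12 ± 0.16, adjusted p = 2.6e-09), and Il7r rose by 2.37. Bcl11b is also among the DN3 markers.

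Myeloid genes known as Runx1 targets were lower in DN3 than in CLP for 6 of 9 and higher for 0 (10.6% of all genes called, list median -2.41 against 0.09), the comparison with the largest called rise of Runx1 among the 15 that were examined in detail. Mpo, the peroxidase of neutrophil granules, was at 4.98 in DN3 and 10.29 in CLP (-5.30 ± 0.23, adjusted p = 2.2e-09), and Elane, neutrophil elastase, at 4.30 and 9.80 (adjusted p = 8.6e-07). The neutrophil marker mean was 4.13 to 5.01 in DN3 and 11.78 to 11.90 in CLP, and its part in this difference was not tested. From HSC to flt3- CMP, with neutrophil means of 11.16 to 11.22 and 10.59 to 10.60, 3 of 9 rose, against 4.22% of all genes called: Mpo by 2.01 (adjusted p = 0.00043), Csf1r, the receptor of macrophage colony-stimulating factor, by 1.38, and Cebpa, a granulocyte factor, by 1.33. Mpo, Csf1r and Cebpa are also among the CMP markers, so their rise restates what the cells are.

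The T, NK and innate lymphoid genes known to depend on Runx3 were high in NK, with 8 of 12 higher there than in CLP and 0 lower (3.22% of all genes called higher, list median 2.81 against 0.09). Ncr1, Eomes and Gzmb of this list are also among the NK markers, so their height in NK restates what the cells are. Il2rb, a chain of the IL-2 and IL-15 receptors, was at 9.998 in NK and 3.83 in CLP (6.17 ± 0.22, adjusted p = 7e-10). Ncr1, an activating receptor of NK cells, was at 11.15 and 4.95 (adjusted p = 3.8e-10), Eomes, a T-box factor, at 8.96 and 3.55, and Gzmb, granzyme B, at 8.90 and 3.57. Against ETP, too, 8 of 12 were higher in NK (11.2% of genes called in either direction, list median of ETP minus NK -2.44), although Runx3 itself differed there by 0.08 (95% interval -0.48 to 0.65, adjusted p = 0.91). In EILP minus CLP 0 of 12 were called by limma, and 4 had an unadjusted p under 0.05. In EILP minus LMPP 2 rose, namely Ncr1 (5.67 against 4.47, adjusted p = 0.013) and Il2rb (4.92 against 3.69, adjusted p = 0.019), with 3.9% of all genes called. NK minus CLP, EILP minus LMPP and DN3 minus ETP cross the Y-linked split and ETP minus NK does not. Ahr, a ligand-activated factor of innate lymphoid cells, was the 1 list gene that rose from ETP to DN3, by 2.13 (adjusted p = 9.7e-05).

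**Figure D4:**
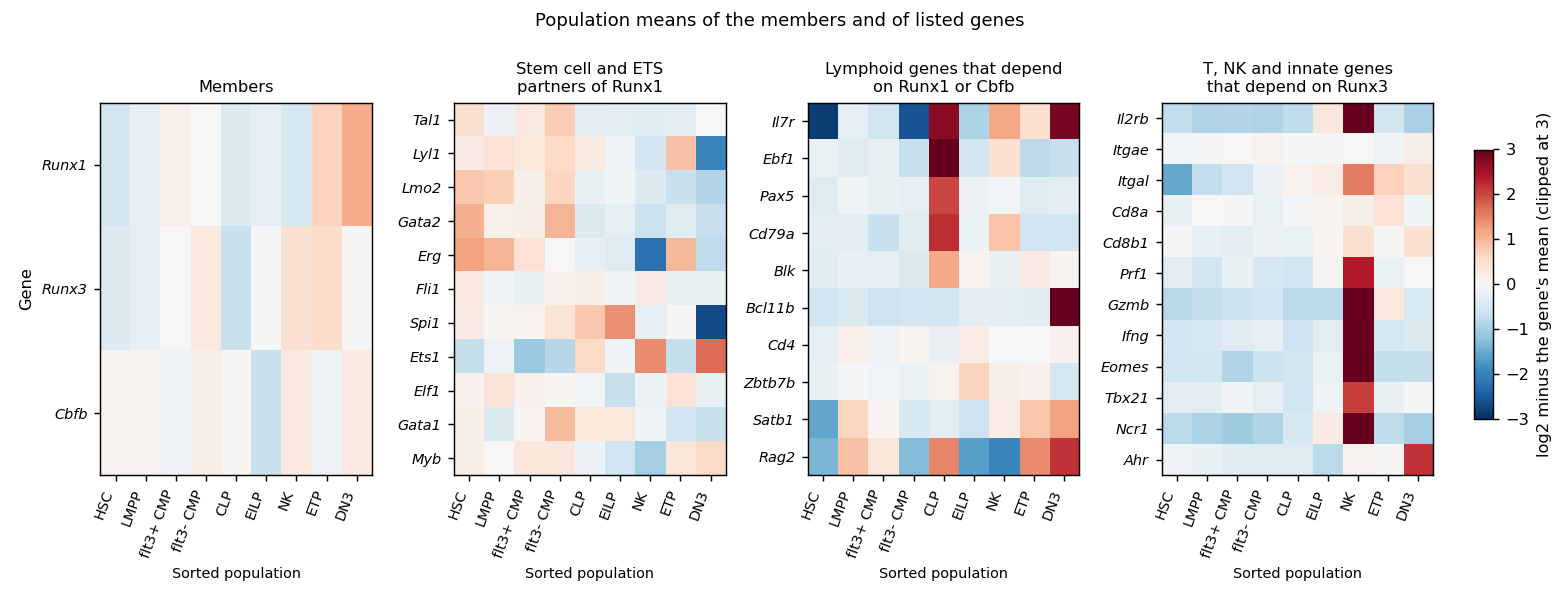
Population means (columns) of the members and of 3 lists of genes (rows), as log2 value minus the mean of that gene over populations, clipped at 3 on the colour scale. The Runx3-dependent genes stand out in NK, where Ncr1 was at 11.15, and Spi1 and Lyl1 are lowest in DN3, at 4.39 and 4.51.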

How the data were processed

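The 17 samples of sorted cells from pooled marrow chimeras each gave 1 Affymetrix array. The deposited values are on a log2 scale and were made by the authors with Affymetrix Expression Console, per the submitters' processing notes. Neither its algorithm nor its version is given in the sources used here. Of 41345 probe sets, the array annotation gave 23521 a single gene symbol, 1814 several and 16010 none, and the brightest probe set stood for each of 22180 genes (1082 had more than 1). With limma (version 3.58.1, under R 4.3.3), population means were estimated from all arrays together (residual df 8), a procedure also tested on simulated data. P-values were adjusted by Benjamini-Hochberg over all genes in each of 36 population pairs, 15 of which were examined in detail. Sequences were from RefSeq (GRCm38.p6), in which 3 of 3 members had windows.

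The text names the 3 members, from each list and comparison at most the 4 called genes with the largest difference of at least 1, and the 5 genes most and 3 least like each member. The members and lists were chosen with earlier results of these data known. Alternatives were other probe set rules, centring, quantile normalization, a filter on dim genes, other variance priors, a replicate block, subsets of populations and each array left out. Array number limits precision.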

Additional observations from a re-analysis of the deposited data

How the results depend on the processing

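Of 1340 alternative values, 1281 kept their direction and side of the threshold or their size. Most of these were differences not called with all arrays that stayed uncalled, so this share does not measure how firm the calls are. With single arrays left out, the only called pairs never lost were Runx1 in DN3 against CLP, HSC and NK and Cbfb in EILP against NK and DN3. Testing all probe sets left 5 pairs for Runx1 and 1 for Runx3, and the F test of Runx3 lost its call (1.22, adjusted p = 0.11); centring lost it as well (1.11, adjusted p = 0.067), and Cbfb in CLP minus LMPP turned to 0.037. Leaving out dim genes gave 5 pairs for Runx3, as did quantile normalization. Fitting only the compared populations ended the Cbfb calls of EILP against LMPP (-0.77, adjusted p = 0.12), NK (-0.96, adjusted p = 0.3), HSC (adjusted p = 0.12) and flt3- CMP (0.055). It also ended those of Runx1 between ETP and NK (0.069) and ETP and HSC (0.17), and that of Runx3 between ETP and CLP (0.064). In marrow alone, chosen after seeing the data, Runx1 spanned 0.70 with 0 of 21 pairs called, and Runx3 and Cbfb each had 4 of 21 called. Of the 5 genes most like each member, 2 (Runx1), 3 (Runx3) and 3 (Cbfb) were also most alike over the 17 arrays.

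With 1 array left out, spans were 1.53 to 2.18 for Runx1, 1.13 to 1.66 for Runx3 and 0.44 to 1.09 for Cbfb. Pairs called were 6 to 12, 0 to 8 and 0 to 5, and the members' calls in the 11 comparisons without EILP 1 to 5 (3 with all arrays). Runx3 pairs were 1 without CLP replicate 1 or NK replicate 2, 0 without CLP replicate 2 and 8 without ETP replicate 2. Runx1 ranged from -0.13 to 0.52 in EILP minus NK, -1.13 to -0.84 in EILP minus ETP, -0.20 to 0.82 in LMPP minus HSC, -0.40 to 0.24 in NK minus CLP and -0.56 to 0.081 in NK minus LMPP. Runx3 ranged from -0.35 to 0.52 in ETP minus NK and -0.041 to 0.34 in LMPP minus HSC. Cbfb ranged from -0.80 to -0.75 in EILP minus LMPP, -0.027 to 0.20 in flt3- CMP minus HSC and -0.030 to 0.069 in LMPP minus HSC. The causes were not tested.

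Same-numbered arrays shared only a number: their deviations correlated by -0.07 to 0.09 over 28 pairs of populations. With the replicate number as a block, the F tests gave adjusted p of 0.0073, 0.048 and 0.031 for Runx1, Runx3 and Cbfb, and 9, 2 and 5 pairs.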
